A study of Homo sapiens with 9 samples.

Results

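Jurkat cells that had received nanosecond electrical pulses (nsEP) were compared with Jurkat cells that had been heat shocked, to ask in which transcripts the response to the electrical stress differed from the response to heat. Jurkat is an established human T lymphocyte line derived from a leukaemia. The comparison used 6 of the 9 arrays of the series, chosen by their titles as the 3 nsEP Jurkat arrays and the 3 heat shock Jurkat arrays, and the 3 sham arrays are shown for their levels. The sham arrays are no part of the log ratio, but they did enter the estimate of the spread between arrays and the choice of a gene's brightest probe set. Cells of all groups were in growth medium in electroporation cuvettes at the same density, and total RNA was extracted 4 h after exposure. The nsEP group received 100 pulses of 10 ns at 150 kV/cm, the heat shock group was warmed in a water bath instead of being pulsed, and the sham group went through the same handling without pulses. The labels call the samples biological replicates, and p-values measure the spread between these 3 samples of a group. By the study's viability assay most Jurkat cells no longer counted as viable some hours after the pulses, and in such bulk RNA fewer cells of a kind cannot be told apart from less RNA per cell.

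The heat shock response is run mainly by heat shock factor 1, which binds paired nGAAn elements in promoters and switches on genes of chaperones, the proteins that refold or hold damaged proteins. Immediate early genes such as FOS, JUN and EGR1 are transcription factor genes that cells switch on without new protein synthesis, through MAP kinases and serum response factor, after growth factors and many kinds of stress. High field pulses of nanosecond length open very small pores in membranes, let calcium into the cytosol and also act on organelles. T lymphocytes add to this a receptor complex with CD3 and costimulatory proteins, whose stimulation gives surface markers such as CD69 and ICOS.

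The deposited values were log2 MAS5 signals, and a log ratio is the mean of the 3 nsEP arrays minus the mean of the 3 heat shock arrays. Over the 54613 probe sets left after the Affymetrix control probe sets were set aside, the median log ratio was -0.18. It was not the same at all signals. Split into quartiles by mean signal, the probe sets had medians of -0.40, -0.39, -0.16 and 0.03 from dim to bright. A relative log ratio is a log ratio minus the median of -0.18, negative where the gene was higher after heat shock, and a probe set was called at a Benjamini-Hochberg adjusted p under 0.05 in limma's test of it. Since bright probe sets lay above the median shift as a class, each call was also set against the median of its own signal quartile. The array medians were 6.25 to 6.43 in the nsEP group and 6.65 to 6.72 in the heat shock group. The added poly-A control transcripts averaged 9.89 to 11.16 on the nsEP arrays and 11.07 to 11.69 on the heat shock arrays, and nsEP replicate 3 stood apart on the second principal component, at 173 where the other 8 arrays lay between -62.6 and 30.6. The 3' minus 5' difference of the GAPDH control probe sets was 0.08 ± 0.42 after nsEP and -0.03 ± 0.03 after heat shock (log2, mean ± SD, n = 3), and that of actin was 0.64 ± 0.52 and 0.71 ± 0.09. The part of these differences between arrays in the results was not tested, other than by scaling to the controls and by leaving arrays out.

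Transcripts of the labelled cell type were bright on the arrays of both groups. The summed signal of 21 measured T cell genes was 100312 to 126221 after nsEP and 87405 to 114916 after heat shock. CD3D, a chain of the T cell receptor complex, had log2 signals of 14.52, 14.51 and 15.09 after nsEP and 14.66, 15.08 and 14.92 after heat shock, with overlapping groups and a relative log ratio of 0.00. Of 11 measured myeloid markers, 1 was called. It was CD14, a coreceptor for bacterial lipopolysaccharide on monocytes, at 2.98, 1.96 and 2.91 after nsEP and 7.09, 6.69 and 7.42 after heat shock, with sham arrays at 1.26, 2.87 and 2.74, and its relative log ratio was -4.28, or -2.02 with 32 signal units added to every value. The summed signal of the 11 myeloid markers was 571 to 672 after nsEP and 763 to 1012 after heat shock, and the means of 10 and 8 of them respectively were under the median of all probe sets. None of 8 B cell markers was called by limma, and none had an unadjusted p under 0.05 or passed the test of the study's methods after adjustment. These tests compare the treatments and do not show whether a marker was present. The summed signal of the 8 was 1342 to 1836 after nsEP and 1351 to 1926 after heat shock. In either group the means of only 3 of them were under the median of all probe sets. The part of the myeloid signal in the results was not tested.

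In the comparison of the treatments, 2578 probe sets were called higher after nsEP (4.72% of those tested) and 1151 lower (2.11%), so that 69.1% of the calls were higher after nsEP. This split depended on the scaling. Against the median of the own signal quartile the counts were 1278 higher and 1060 lower (54.7% higher), as deposited and against 0 they were 1261 and 1446 (46.6% higher), and after quantile normalization 1240 and 1121 (52.5% higher). Of the 2578 probe sets 2046 were in the brightest signal quartile. For the 19775 genes, each at its brightest probe set over the 9 arrays, 1461 were called higher after nsEP (7.39%) and 322 lower (1.63%). These shares are given as the background of each gene list, but calls towards nsEP rose with signal. In the brightest quartile 2046 of 13654 probe sets were called higher, against 31 of 13653 in the dimmest. For a list of bright genes the 7.39% is therefore a low background, and its calls against the signal quartile are to be read beside it. When the 3 sham arrays were also kept out of the fit, 1759 probe sets were called higher and 896 lower. Scaling to the poly-A controls moved every difference towards nsEP, left 139 probe sets called lower, and ended the call of 24 of the 48 named genes called lower, as is given beside those described. Of the 114 named genes called, 64 had several probe sets, of which 20 had all of them called the same way and 18 had 1 or more of the opposite sign. Where a gene is given below without its other probe sets, their agreement is not implied.

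**Figure D1:**
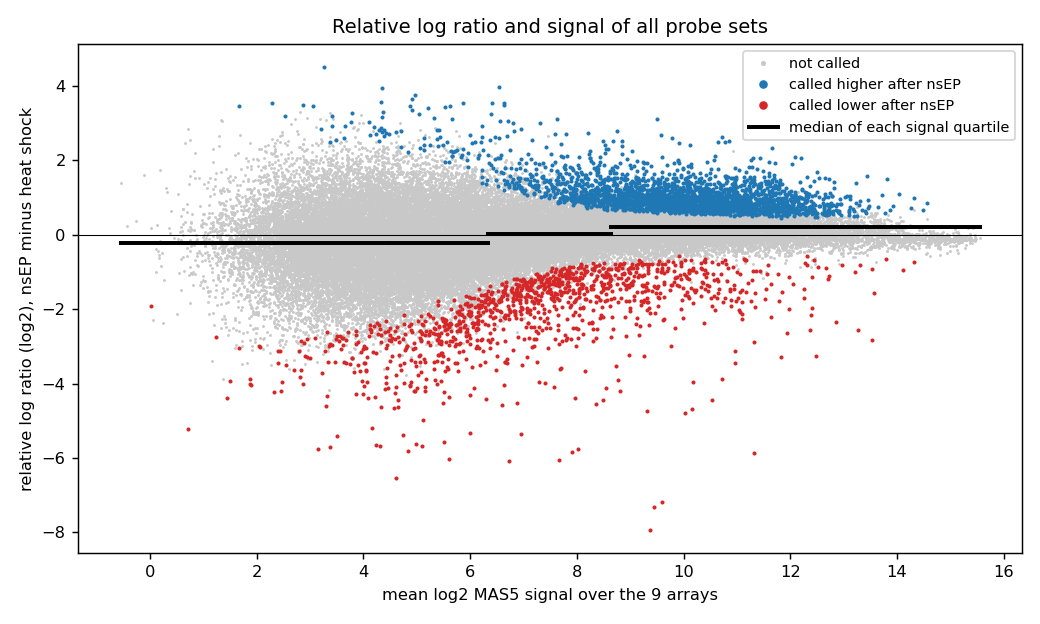
Relative log ratio of nsEP minus heat shock (log2) against the mean log2 MAS5 signal over the 9 arrays, 1 point for each of 54613 probe sets, with called probe sets in colour and the median of each signal quartile as a black line. Changes towards heat shock reach below -7 while those towards nsEP stay under 5, and the line of the brightest quartile lies above 0.

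The sham arrays, which did not enter the log ratio, give the level that either treatment started from. Of the 322 genes lower after nsEP, the sham mean was nearer to the nsEP mean in 268 (83.2%), against 66.2% of all genes. The sham mean was below both treatments in 100 of the 322 (31.1%), a share no higher than the 34.3% of all genes. Of the 1461 genes higher after nsEP, the sham mean was nearer to the nsEP mean in 1363 (93.3%). The heat shock mean was under the sham mean in 1448 of the 1461 (99.1%, against 40.8% of all genes), and the nsEP mean was above it in 788 (53.9%, against 47.6%). The choice of genes by nsEP minus heat shock acts on these shares, which are given as a description.

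The largest difference of the named genes was in a chaperone gene, towards heat shock. HSPA6, an HSP70 that is nearly silent in unstressed cells, had log2 signals of 6.74, 8.05 and 8.0 after nsEP and 14.98, 14.93 and 14.99 after heat shock, with sham arrays at 5.82, 6.34 and 6.44. The 3 nsEP arrays were each above every sham array, yet far below every heat shock array. The relative log ratio was -7.19 ± 0.30 (SE), a 146-fold difference, with an adjusted p of 1.53e-07. Of 7 measured cytosolic HSP70 and HSP110 genes, 5 were lower after nsEP, against 1.63% of all genes, and none higher, and the list median was -1.65 against 0.04 for all genes. HSPA1L followed at -4.35 and HSPA2 at -2.51, both HSP70 genes, and then HSPA4L at -1.65 and HSPH1 at -1.58, which are HSP110 proteins that exchange the nucleotide of HSP70. HSPH1 was bright in all groups, with 12.69, 12.82 and 12.98 in sham, 12.92, 13.22 and 13.03 after nsEP and 14.81, 14.70 and 14.94 after heat shock. All 3 of its probe sets were called, from -3.96 to -1.32. With poly-A scaling HSPA2 (-1.74, adjusted p = 0.0599), HSPA4L (-0.88, 0.251) and HSPH1 (-0.81, 0.281) lost their calls. HSPA1A, HSPA1B and HSPA8 had no probe set that named the gene alone.

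Promoter sequence is shown for 4 genes of this direction, to show what the letters of a heat shock element pair and of a serum response element look like where they occur. Each run is the 250 bases before the start of the gene, 5′ to 3′ on the gene's strand, from RefSeq on GRCh38.p14, and capitals mark matches to the searched letters on either strand. The heat shock element pairs searched were GAANNTTC and TTCNNGAA, which may overlap, and the others were the CArG box of serum response elements, the AP-1 site TGANTCA and the cyclic AMP response element TGACGTCA.
HSPA6, chr1:161524290-161524539, + strand: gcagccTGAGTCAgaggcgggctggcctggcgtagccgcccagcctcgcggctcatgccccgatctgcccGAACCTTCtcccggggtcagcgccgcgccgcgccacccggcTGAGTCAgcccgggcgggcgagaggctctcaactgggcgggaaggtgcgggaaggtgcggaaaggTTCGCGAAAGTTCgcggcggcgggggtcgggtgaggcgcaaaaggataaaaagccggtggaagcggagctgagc
SERPINH1, chr11:75562003-75562252, + strand: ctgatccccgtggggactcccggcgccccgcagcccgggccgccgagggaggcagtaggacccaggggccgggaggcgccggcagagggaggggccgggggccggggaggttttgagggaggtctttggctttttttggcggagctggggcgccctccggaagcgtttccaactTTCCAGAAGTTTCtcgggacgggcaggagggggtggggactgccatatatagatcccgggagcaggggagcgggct
IER5, chr1:181088450-181088699, + strand: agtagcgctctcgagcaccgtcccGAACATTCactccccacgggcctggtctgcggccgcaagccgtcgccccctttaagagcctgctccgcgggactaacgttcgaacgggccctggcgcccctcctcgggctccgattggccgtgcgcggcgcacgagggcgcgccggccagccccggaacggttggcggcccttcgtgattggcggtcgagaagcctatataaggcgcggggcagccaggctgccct
EGR1, chr5:138465229-138465478, + strand: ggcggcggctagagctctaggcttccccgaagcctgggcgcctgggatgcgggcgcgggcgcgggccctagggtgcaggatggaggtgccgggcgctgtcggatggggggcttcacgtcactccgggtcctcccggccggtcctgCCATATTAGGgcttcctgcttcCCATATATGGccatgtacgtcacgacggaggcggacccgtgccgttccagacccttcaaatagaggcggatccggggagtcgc

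HSPA6 held 3 heat shock element pairs, at bases -180, -74 and -69 from the start, where the last pair overlap in a run of alternating units, and 2 AP-1 matches. SERPINH1 held overlapping pairs at -76 and -71, IER5 had 1 pair at -226, and EGR1 had CArG boxes at -105 and -83 and no heat shock element pair. A heat shock element pair in either form was in 11.7% of the promoters of genes lower after nsEP (27 of 230 with a promoter), 8.51% of those higher (105 of 1234) and 9.91% of all tested genes (1524 of 15384). The CArG box was in 2.17%, 0.891% and 1.14%, TGANTCA in 3.48%, 4.62% and 5.03%, and TGACGTCA in 4.35%, 3.08% and 2.38%, in the same order. Among all the 27305 promoters read from RefSeq, 11.7% held a heat shock element pair. These are matches of letters and do not show that a factor binds.

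Of 9 measured genes of small heat shock proteins and HSP47, 3 were lower after nsEP, against 1.63% of all genes, and none higher. SERPINH1 encodes HSP47, the collagen chaperone of the endoplasmic reticulum, and lay at 3.46, 3.23 and 3.12 after nsEP, close to its dim sham levels of 3.43, 3.14 and 5.64, and at 10.35, 8.72 and 9.36 after heat shock (relative log ratio -6.03 ± 0.68, adjusted p = 2.85e-04, and -4.07 with 32 signal units added to every value). CRYAB, the small heat shock protein alpha B crystallin, was at 4.17, 6.27 and 7.19 after nsEP and 12.72, 11.19 and 11.79 after heat shock (-5.85 ± 0.65, adjusted p = 2.63e-04). The 3 nsEP arrays spread over the range of the sham arrays and beyond it for CRYAB, and did not overlap the heat shock arrays. HSPB1, or HSP27, differed by -2.28 (adjusted p = 0.00117), or -1.50 with poly-A scaling, where its call was lost (adjusted p = 0.0654). The other members did not pass, and HSPB8 was at 0.43. The list median was -1.86, or -1.02 with each gene taken as the mean of its probe sets.

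Among 16 HSP40 and BAG cochaperones 3 were lower after nsEP and 1 higher, against 1.63% and 7.39% of all genes. DNAJB1, the main HSP40 partner of HSP70, was at 11.92, 12.17 and 12.17 in sham, 12.31, 12.56 and 12.59 after nsEP and 15.23, 15.22 and 15.23 after heat shock and differed by -2.56 ± 0.14 (adjusted p = 1.62e-06). DNAJB4 differed by -2.98 and BAG3, which couples HSP70 to autophagy, by -2.64. BAG5 was called higher at 0.63, a call that was lost against its signal quartile (adjusted p = 0.144), as was that of CDC37L1 among the HSP90 cochaperones (1.02, then 0.0903). In the HSP90 list of 13 the gene called lower was FKBP4, an immunophilin cochaperone, at -0.68, which lost its call without heat shock replicate 1 or 3 (adjusted p up to 0.0557) and was at 0.09 with poly-A scaling. Against the signal quartile 3 of the 13 were lower. HSP90AA1, the inducible HSP90, had overlapping groups at its brightest probe set, with 14.69, 14.82 and 15.73 after nsEP and 15.41, 15.52 and 15.47 after heat shock (-0.21, adjusted p = 0.747). Of its 4 probe sets 1 was called lower after nsEP, and they ranged from -0.72 to -0.21. None of 9 chaperonin genes and none of HSF1, HSF4 and HSBP1, the measured genes of heat shock factors and of their binding protein, was called by limma or, after adjustment, by the test of the study's methods, and none had an unadjusted p under 0.05. HMOX1, a haem oxygenase induced by heat and oxidants, was lower after nsEP on every array (6.67, 6.34 and 7.23 against 7.61, 7.61 and 7.66) but its relative log ratio of -0.70 did not pass (adjusted p = 0.262).

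**Figure D2:**
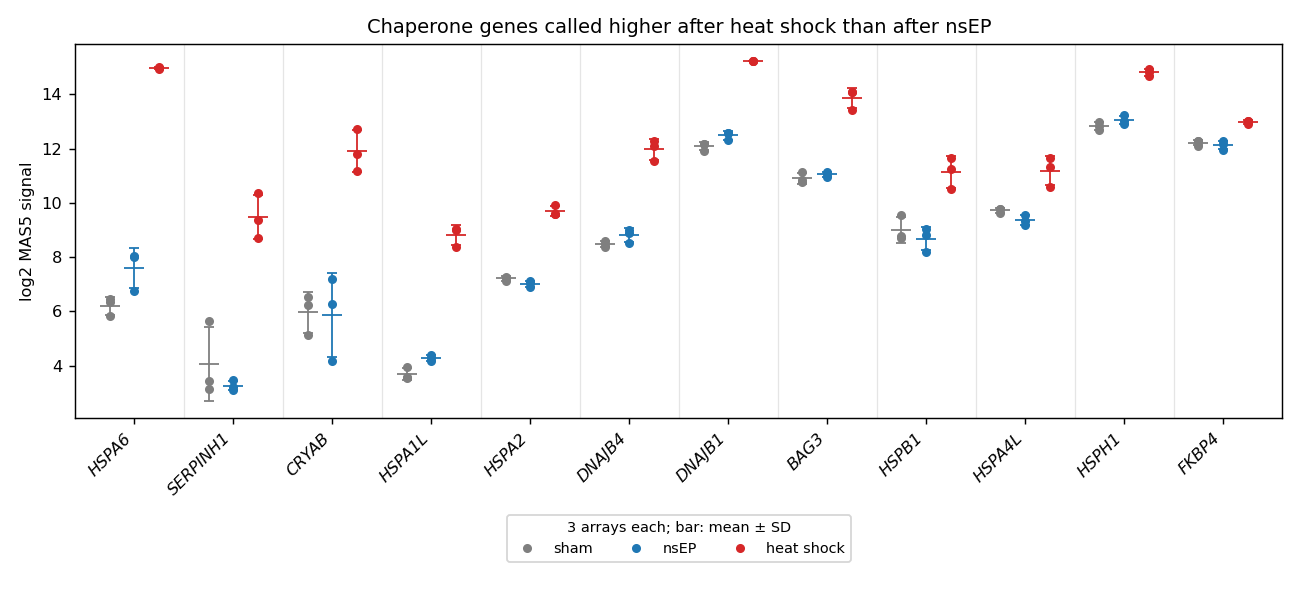
Log2 MAS5 signal of 12 chaperone and cochaperone genes on each array, with sham in grey, nsEP in blue and heat shock in red; points are arrays and bars the mean ± SD of 3. Every heat shock point lies above every nsEP point, and in HSPA6, HSPA1L and DNAJB1 the nsEP points also lie above the sham points.

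Other genes far lower after nsEP came from several functions. The 15 with the largest relative log ratio were HSPA6, SERPINH1, CRYAB, RPPH1, PCK1, ARC, SNAI1, C17orf99, GADD45G, GADD45B, RGS2, COL2A1, ID2, CRYBA4 and HSPA1L, from -7.19 to -4.35, and for all 15 the sham mean was nearer to the nsEP mean. RPPH1, the RNA component of RNase P that trims tRNA precursors, was at 5.84, 5.31 and 6.35 in sham, 6.40, 5.64 and 6.35 after nsEP and 11.73, 12.54 and 11.95 after heat shock. Its nsEP and sham arrays overlapped, and the relative log ratio was -5.77 ± 0.32 (adjusted p = 1.62e-06). PCK1, the cytosolic enzyme that starts gluconeogenesis from oxaloacetate, ARC, an immediate early gene of neurons, and SNAI1, a zinc finger repressor, were dim in sham and nsEP cells. Their nsEP arrays read 1.77, 1.00 and 1.85 for PCK1, 2.04, 1.96 and 2.38 for ARC and 3.12, 4.14 and 2.89 for SNAI1, and all were below the 3 heat shock arrays of the gene. Those read 7.81, 7.20 and 7.39 for PCK1, 8.57, 7.28 and 8.14 for ARC and 9.17, 9.41 and 8.84 for SNAI1. At such low signals the size of a log ratio depends on the noise floor, and with 32 signal units added to every value PCK1 went from -5.75 to -2.48 and ARC from -5.69 to -2.89. SNAI1 went to -3.69, C17orf99 to -3.21, GADD45G to -3.22 and CRYBA4 to -2.22 in the same way, with all 6 still called. ID2, an inhibitor of basic helix-loop-helix factors, had mean signals of 8.45 in sham, 9.26 after nsEP and 13.87 after heat shock and differed by -4.43 ± 0.25.

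The GADD45 genes encode small stress proteins that bind MAP kinase kinases and PCNA. GADD45B was at 8.04, 8.57 and 8.97 after nsEP and 13.46, 13.54 and 13.50 after heat shock, a relative log ratio of -4.80 ± 0.21 (27.8-fold, adjusted p = 2.04e-07), with all 4 of its probe sets called the same way. GADD45G, which was dim after nsEP at 3.39, 4.54 and 2.66, differed by -4.99, or -3.22 with 32 units added. RGS2, which shortens signals of Gq coupled receptors, showed a middle level after nsEP. Its sham arrays lay at 7.11, 6.70 and 7.77, its nsEP arrays at 8.67, 9.59 and 9.38 and its heat shock arrays at 14.08, 14.16 and 13.94, without overlap between any of the groups (-4.67 ± 0.27, adjusted p = 2.22e-06).

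Several immediate early genes lay above sham after both treatments, and most of those called were higher after heat shock. FOS was at 2.61, 3.84 and 2.77 in sham, 10.10, 11.29 and 9.64 after nsEP and 12.35, 12.44 and 12.002 after heat shock. Both treated groups lay far above sham, and their difference of -1.75 ± 0.40 was small beside that. Its adjusted p of 0.0201 rose to as much as 0.0785 when heat shock replicate 1, 2 or 3 or nsEP replicate 1 or 3 was left out in turn, which ended the call. FOSB differed by -2.81 (adjusted p = 4.63e-04), with 4.10, 4.05 and 4.48 in sham, 6.93, 8.22 and 8.22 after nsEP and 10.79, 10.69 and 10.85 after heat shock. JUN was at 10.08, 9.90 and 9.85 in sham, 13.13, 13.69 and 13.41 after nsEP and 14.80, 14.65 and 14.87 after heat shock, with no overlap (-1.18 ± 0.16, adjusted p = 0.00112). All 4 of its probe sets were called, and the lowest lay at -3.45. MAFF, a small partner of AP-1 factors, was the other called member of 14 AP-1 genes, at -0.91 (adjusted p = 0.0452), and lost its call without heat shock replicate 1 or 3 or nsEP replicate 1 or 2 (up to 0.185). With poly-A scaling the differences were -0.97 for FOS (adjusted p = 0.306), -0.41 for JUN (0.576) and -0.13 for MAFF (0.873), and none of these 3 was called. JUNB and ATF3 had overlapping groups. ATF3, a stress-induced repressor of the same family, read 10.45, 10.82 and 10.09 after nsEP and 10.61, 11.18 and 10.94 after heat shock, where sham read 8.31, 8.11 and 8.04 (-0.28, adjusted p = 0.545).

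A list of 25 other measured immediate early and related genes held transcription factor genes, but also IER, ZFP36 and CCN1 genes. Of these 25 genes 10 were lower after nsEP and 1 higher, against 1.63% and 7.39% of all genes, with a list median of -1.13. EGR1, a zinc finger factor of growth signals, went from 7.79, 8.83 and 8.16 in sham to 12.67, 13.63 and 13.31 after nsEP and 14.73, 14.86 and 14.49 after heat shock. The groups did not overlap, and the relative log ratio was -1.31 ± 0.27 (adjusted p = 0.0123, and 0.051 without heat shock replicate 1). IER5, a cofactor of heat shock factor 1, gave the largest difference of the list, with nsEP arrays at the sham level or just under it. It was at 10.66, 10.92 and 10.70 in sham, 10.62, 10.67 and 10.58 after nsEP and 14.25, 13.86 and 14.13 after heat shock (-3.28 ± 0.15, adjusted p = 2.04e-07). Its relative IER5L differed by -3.04, and the zinc finger factor genes KLF5 and KLF10 by -2.07 and -1.78, and the nsEP arrays of both KLF genes overlapped the sham arrays. With poly-A scaling EGR1 (-0.54, adjusted p = 0.49), KLF5 (-1.30, 0.227) and KLF10 (-1.01, 0.197) lost their calls. FOS, FOSB, JUN and EGR1 thus lay above every sham array after both treatments, and IER5, KLF5 and KLF10 only after heat shock. The member called higher after nsEP was MYC, a growth-promoting transcription factor gene named here after its value was seen, at 0.86 (adjusted p = 0.0194), and it was not called against its signal quartile.

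**Figure D3:**
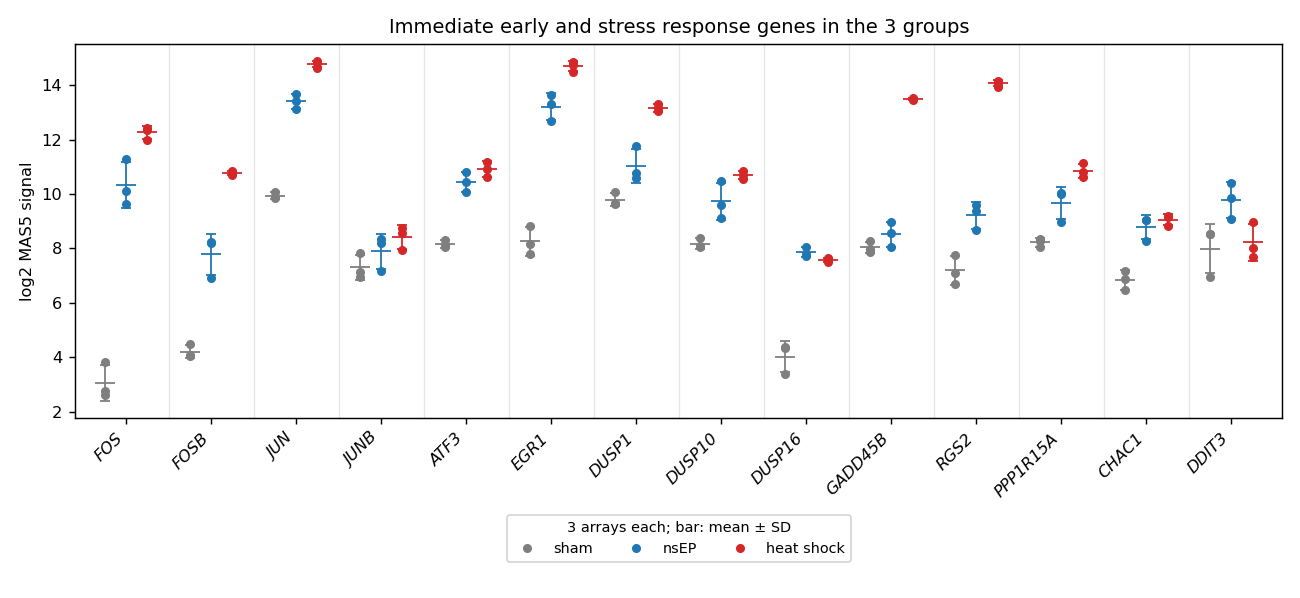
Log2 MAS5 signal of 14 immediate early and stress response genes on each array, with sham in grey, nsEP in blue and heat shock in red; points are arrays and bars the mean ± SD of 3. In FOS, JUN and EGR1 both treatments lie above sham with heat shock highest, in ATF3 and CHAC1 the treated groups overlap, and in DDIT3 the nsEP arrays are highest.

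Feedback inhibitors of MAP kinases, listed together with the G protein regulators RGS1, RGS2 and RGS16, did not move as 1 group. Of 18 measured, 3 were lower after nsEP and 2 higher, against 1.63% and 7.39% of all genes, with a median of 0.22. RGS2, given above, was 1 of the 3. DUSP1, a nuclear phosphatase of MAP kinases, was at 10.61, 11.75 and 10.76 after nsEP and 13.31, 13.04 and 13.15 after heat shock (-1.95 ± 0.25, adjusted p = 7.90e-04). DUSP5, a phosphatase of ERK, was also lower at -1.37, a call lost without heat shock replicate 2 (adjusted p = 0.054). Of the 3 probe sets of DUSP1, 2 were called, the lowest lay at -3.88 and the highest at 0.38. With poly-A scaling DUSP1 (-1.17, adjusted p = 0.142) and DUSP5 (-0.59, 0.5) lost their calls. DUSP16 and DUSP10, phosphatases of JNK and p38, were above every sham array after both treatments and did not pass the test. DUSP16 read 3.38, 4.34 and 4.39 in sham, 7.74, 8.06 and 7.80 after nsEP and 7.64, 7.62 and 7.5 after heat shock, where the nsEP arrays were the higher by a relative 0.46 (adjusted p = 0.587). DUSP10 read 8.10, 8.40 and 8.04 in sham, 9.12, 10.47 and 9.6 after nsEP and 10.54, 10.69 and 10.86 after heat shock (-0.79, adjusted p = 0.122). SPRED2, a membrane inhibitor of RAS signalling, was higher after nsEP at 1.76 ± 0.20 (adjusted p = 2.85e-04), with 10.26, 10.30 and 10.24 in sham, 10.47, 11.12 and 10.32 after nsEP and 8.93, 9.18 and 9.06 after heat shock. Of its 3 probe sets 1 was called, and the lowest lay at -0.21.

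The integrated stress response works through phosphorylation of eIF2 alpha and the factor ATF4, which turns on amino acid transport and synthesis genes. Of 23 measured genes 10 were higher after nsEP and 2 lower, against 7.39% and 1.63% of all genes, and the median was 0.58. Against the own signal quartile 5 remained called higher and the 2 stayed lower. SLC7A11, the cystine importer, was at 9.88, 8.84 and 9.69 in sham, 10.73, 11.22 and 11.06 after nsEP and 9.36, 8.41 and 9.84 after heat shock. All nsEP arrays were above all others, and heat shock overlapped sham (1.98 ± 0.34, adjusted p = 0.0039). SLC7A5, the large neutral amino acid transporter, was at 12.30, 12.77 and 13.04 after nsEP and 11.18, 11.36 and 11.85 after heat shock, with sham at 12.62, 12.14 and 12.30 (1.41, adjusted p = 0.00238). DDIT3, the factor CHOP, was at 6.94, 8.54 and 8.52 in sham, 9.08, 10.41 and 9.85 after nsEP and 8.02, 8.98 and 7.68 after heat shock. Its difference of 1.73 passed at 0.0415, but not against its signal quartile (0.0914) and not without heat shock replicate 1 or 3 or nsEP replicate 2 or 3 (up to 0.218). CHAC1, an enzyme that breaks down glutathione and a target of the same factors, had overlapping groups of 8.27, 9.06 and 9.04 after nsEP and 9.16, 8.82 and 9.18 after heat shock. The members in the other direction were DDIT4, an inhibitor of mTOR, at -1.56 (adjusted p = 8.76e-04), and PPP1R15A, the phosphatase subunit that reverses the eIF2 alpha mark, at -1.01 (adjusted p = 0.0369). PPP1R15A was above sham after both treatments, with 8.37, 8.27 and 8.06 in sham, 8.98, 10.01 and 10.02 after nsEP and 11.14, 10.63 and 10.80 after heat shock, and lost its call without heat shock replicate 1, 2 or 3 or nsEP replicate 1 (up to 0.15). With poly-A scaling neither DDIT4 (-0.79, adjusted p = 0.298) nor PPP1R15A (-0.23, 0.774) was called.

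Some genes of the endoplasmic reticulum, of redox defence and of sterol synthesis were higher after nsEP, beside 7.39% of all genes. None of their lists had a member called lower. With 1.63% of all genes called lower, this is not read as a result about lists of this size. In the brightest signal quartile 2046 of 13654 probe sets were called higher, so calls lost or kept against the signal quartile are given too. Of 20 genes of the unfolded protein response 5 were higher after nsEP and none lower, and 2 of them kept the call against the signal quartile, which were ERN1, the sensor IRE1, at 1.09 (adjusted p = 0.00438) and SEL1L, of the degradation ligase, at 1.23 (adjusted p = 0.00554). ERN1 had 3 probe sets, of which 1 was called and another lay in the opposite direction at -1.04. The median of the unfolded protein response list was 0.16 relative to the median shift and -0.01 as deposited. With each gene as the mean of its probe sets 2 of its genes were higher, 1 was lower and the median was -0.01. Of 16 NRF2 antioxidant genes 4 were higher, which were the thioredoxin reductase TXNRD1 at 0.94, the peroxiredoxin PRDX1 at 0.99 and the glutathione synthesis subunits GCLM at 0.93 and GCLC at 0.89, all still called against the signal quartile. TXNRD1 read 13.68, 13.85 and 13.78 after nsEP and 13.11, 12.99 and 12.94 after heat shock. Of its 2 probe sets 1 was called and the other lay at 0.08, and of the 3 of GCLC 1 was called. PRDX1 lost its call without heat shock replicate 2 or 3 (adjusted p up to 0.0536). Of 15 cholesterol genes 4 were higher, with SQLE, squalene epoxidase, at 11.67, 11.85 and 11.68 in sham, 12.35, 12.59 and 11.81 after nsEP and 11.21, 11.18 and 10.51 after heat shock (1.47 ± 0.22, adjusted p = 0.00206), SC5D at 1.25, MSMO1 at 1.11 and IDI1 at 1.10, of whose 4 probe sets 2 were called and the lowest lay at -0.28. The MSMO1 call was lost against the signal quartile (0.0747) and without heat shock replicate 2 or 3 or nsEP replicate 1 or 2. HMGCS1, an early enzyme of the pathway, had overlapping groups (0.66, adjusted p = 0.194). Medians of the antioxidant and cholesterol lists were 0.46 and 0.53, and with each gene as the mean of its probe sets 2 members of each were higher.

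The 15 genes with the largest relative log ratio towards nsEP were ICOS, ATP6V0E2-AS1, ZNF350, ITPKA, CARD8-AS1, PARS2, GPR18, CHRNA9, MED4, ZBTB42, CD69, GTF2B, TNFSF10, GPR65 and CCDC12, from 3.57 to 2.51. The sham mean was nearer to the nsEP mean for 13 of them, and nearer to the heat shock mean for ICOS and CD69. ICOS, a costimulatory receptor that appears on stimulated T cells, was at 3.25, 2.70 and 3.66 in sham, 6.33, 7.60 and 5.84 after nsEP and 3.5, 3.80 and 2.29 after heat shock. Every nsEP array was above every other array (3.57 ± 0.71, adjusted p = 0.00985), but the sham and heat shock signals were in the dimmest quartile, the difference was 1.75 with 32 units added, and without nsEP replicate 2 the adjusted p was 0.0657. CD69, an early surface marker of T cell activation, was at 8.65, 9.86 and 9.01 in sham, 11.21, 11.71 and 10.996 after nsEP and 8.29, 9.6 and 8.75 after heat shock (2.60 ± 0.35, adjusted p = 9.41e-04). The CD69 call held when each of the 6 arrays was left out in turn. The calls of ZNF350 and ITPKA, both dim, were each lost without 5 of the 6 arrays in turn, which for ZNF350 were heat shock replicates 1 and 2 and all nsEP replicates and for ITPKA all heat shock replicates and nsEP replicates 2 and 3 (adjusted p up to 0.15 and 0.139), and that of ATP6V0E2-AS1 without nsEP replicate 2 (0.0568). With 32 units added ATP6V0E2-AS1 went from 3.54 to 1.89, ZNF350 to 1.61, ITPKA to 1.66, CARD8-AS1 to 1.91 and ZBTB42 to 1.54, all still called. CARD8-AS1 and ZNF350 had 2 probe sets each, of which 1 was called, and the other lay at 0.57 and 1.11 respectively.

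Bright genes at the top of this direction had nsEP arrays among or near the sham arrays and lower heat shock arrays. MED4, a subunit of the Mediator complex that bridges transcription factors and RNA polymerase II, was at 11.49, 11.89 and 11.45 in sham, 11.85, 11.52 and 11.15 after nsEP and 8.97, 8.78 and 9.41 after heat shock (2.63 ± 0.22, adjusted p = 3.46e-05). GTF2B, the general transcription factor TFIIB, was at 11.18, 11.48 and 11.41 in sham, 11.85, 12.05 and 11.41 after nsEP and 9.45, 9.35 and 9.47 after heat shock (2.52 ± 0.17, adjusted p = 8.38e-06). CCDC12, a spliceosome component, differed by 2.51 and GPR65, an acid-sensing receptor of lymphocytes, by 2.51, and heat shock arrays of both were under all sham arrays.

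Of 24 measured SMN, Gemin and Mediator genes 9 were higher after nsEP and none lower, with a median of 0.51 against 0.04 for all genes and a background of 7.39% called higher and 1.63% lower. This list joins the SMN and Gemin complex with Mediator subunits. Like the other lists it was chosen with earlier results of these data known, so its count is a description. Against the signal quartile 7 kept the call. GEMIN4, a member of the complex that loads Sm proteins on spliceosomal RNAs, was at 11.38, 10.41 and 10.85 in sham, 10.22, 10.49 and 10.98 after nsEP and 8.27, 8.45 and 8.10 after heat shock (2.47 ± 0.25, adjusted p = 1.53e-04). GEMIN6 and DDX20, of the same complex, differed by 2.10 and 1.96, although 1 of the 2 probe sets of GEMIN6 was called and the other lay at -0.02. With each gene taken as the mean of its probe sets 8 members were higher and 1 lower, which was STRAP, a partner of the Gemin proteins.

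Of 29 measured apoptosis regulators 7 were higher after nsEP and 1 lower, against 7.39% and 1.63% of all genes, with a median of 0.08. Against the own signal quartile 5 were called higher and 2 lower. Members of the death receptor pathway were among the 7. TNFSF10, the death ligand TRAIL, was at 8.66, 10.10 and 9.0 in sham, 8.84, 9.78 and 9.20 after nsEP and 6.20, 7.81 and 6.79 after heat shock (2.52 ± 0.43, adjusted p = 0.00401), with all 3 of its probe sets called. FADD, the adaptor that brings caspases to death receptors, was at 10.96, 10.78 and 10.79 in sham, 11.12, 10.85 and 10.71 after nsEP and 8.98, 8.22 and 8.73 after heat shock (2.43 ± 0.20, adjusted p = 3.46e-05). CASP8, the caspase that FADD recruits, differed by 1.37 (adjusted p = 1.50e-04) and is named here after its value was seen. CASP10, its paralogue, differed by 1.64 (adjusted p = 0.0411), a call lost against the signal quartile (0.0575) and without any of 5 arrays in turn, all but heat shock replicate 1 (up to 0.201). BCL2L2, an inhibitor of mitochondrial apoptosis, was higher by 2.2, or 1.33 with 32 units added. Of the 4 probe sets of CASP10 1 was called, and of the 2 of BCL2L2 1. The 1 lower was MCL1, an inhibitor of apoptosis with a short-lived product, at -0.57 (adjusted p = 0.0343), also named after its value was seen. Poly-A scaling moves all differences alike and turned the larger -0.68 of FKBP4 positive, so the direction of MCL1 does not hold under it. With each gene as the mean of its probe sets 3 of the 29 were higher.

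Of 21 measured T cell receptor and identity genes 7 were higher after nsEP and none lower, against 7.39% and 1.63% of all genes. Against the signal quartile 4 of the 7 kept the call. Of the receptor chains, CD247, the CD3 zeta chain, was higher by 0.76 (adjusted p = 0.0302) and lost the call against its signal quartile (adjusted p = 0.138). CD3D, CD3E (0.38, adjusted p = 0.189) and CD3G (0.62, adjusted p = 0.0772) did not pass, and CD247 and CD3G are named here after their values were seen. CD2, an adhesion receptor of T cells, was at 12.25, 12.50 and 12.23 in sham, 12.11, 12.53 and 12.22 after nsEP and 10.51, 10.77 and 10.33 after heat shock (1.93 ± 0.17, adjusted p = 5.07e-05). The nsEP and sham arrays of CD2 overlapped and the heat shock arrays lay under both. TRAT1, which stabilises the receptor complex, differed by 2.48, RHOH, a GTPase of lymphocytes, by 1.53 and the costimulatory receptor CD28 by 1.46, each with heat shock arrays under all sham arrays. RHOH had 2 probe sets, and the one not called lay in the opposite direction at -0.85. With each gene as the mean of its probe sets 3 of the 21 were higher. MIR142, the host transcript of a microRNA of blood cells, was under every sham array after both treatments, at 11.53, 11.78 and 11.65 in sham, 10.32, 10.25 and 10.15 after nsEP and 8.04, 8.78 and 8.71 after heat shock (1.91 ± 0.19, adjusted p = 1.53e-04). It had 2 probe sets of which 1 was called, and the mature microRNA was not measured. HES1, a repressor downstream of Notch, was lower after nsEP at -2.89 (adjusted p = 1.99e-04), while NOTCH3 was higher at 0.89, a call lost without any 1 of the heat shock replicates or nsEP replicate 1 or 2 (adjusted p up to 0.17). Of 15 T cell activation genes 3 were higher, against 7.39% of all genes. They were ICOS, CD69 and NFATC1 (0.80, adjusted p = 0.0626 against its signal quartile and 0.0868 without nsEP replicate 2). NFATC1 had 1 of its 5 probe sets called and the lowest at -0.79, and with poly-A scaling neither NFATC1 (adjusted p = 0.0548) nor NOTCH3 (0.0627) was called.

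**Figure D4:**
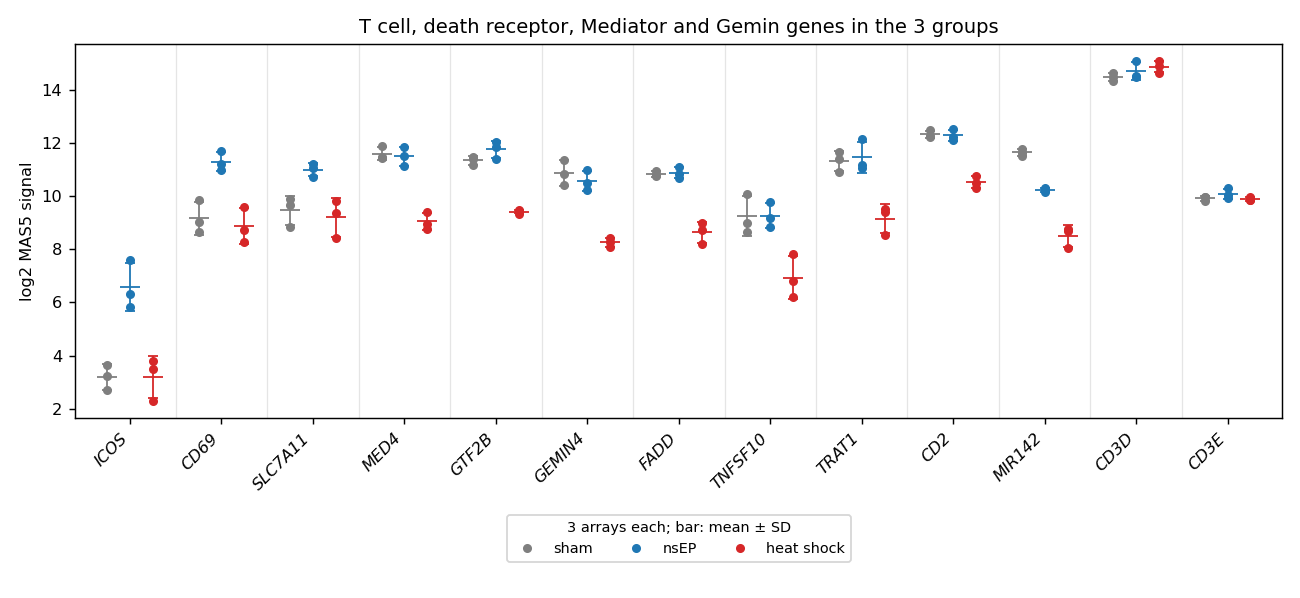
Log2 MAS5 signal of 13 genes on each array, with sham in grey, nsEP in blue and heat shock in red; points are arrays and bars the mean ± SD of 3. ICOS, CD69 and SLC7A11 have nsEP arrays above the sham and heat shock arrays, MED4 to CD2 have heat shock arrays below both, and CD3D and CD3E overlap.

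Cell cycle genes changed singly. PCNA, the sliding clamp of DNA replication, was at 13.76, 13.74 and 14.21 after nsEP and 12.64, 12.22 and 12.64 after heat shock, with sham at 13.81, 13.73 and 14.19 (1.58 ± 0.19, adjusted p = 4.95e-04), and TTK, a kinase of the spindle checkpoint, differed by 1.47. Of 26 genes of G1 and S phase 3 were higher after nsEP, as were 3 of 23 of G2 and M phase, counts that stand beside a background of 7.39% called higher. MDM2, the ligase of p53, was higher by 1.17 (adjusted p = 9.69e-04) although 2 of its 10 probe sets were called. Of 10 clustered histone genes 3 were lower after nsEP, against 1.63% of all genes, with H3C2 at 6.13, 5.59 and 6.23 after nsEP and 8.66, 8.45 and 8.21 after heat shock (-2.28, adjusted p = 0.00261). Of 21 glycolysis and hypoxia genes 3 were lower, which were the vasodilator peptide gene ADM at -3.62, VEGFA at -1.44 and the glucose transporter gene SLC2A3 at -1.33, and SLC2A3 lost its call without heat shock replicate 2 or 3 (adjusted p up to 0.0768) and had another probe set at 1.44. RNA45SN5, a ribosomal RNA precursor gene, was above sham after both treatments, at 9.30, 9.69 and 9.41 in sham, 11.11, 10.93 and 11.17 after nsEP and 12.77, 12.92 and 12.53 after heat shock (-1.50 ± 0.16, adjusted p = 2.11e-04). With poly-A scaling the 3 histone genes, VEGFA (-0.66, adjusted p = 0.408), SLC2A3 (-0.56, 0.503) and RNA45SN5 (-0.72, 0.332) lost their calls, with H3C2 at -1.51 (0.158).

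Housekeeping lists, and a list of the actin cytoskeleton with targets of serum response factor or YAP, held few calls. None of 14 ribosomal protein genes, 20 oxidative phosphorylation genes, 15 genes of that actin and target list or 23 splicing factor genes was called, with medians between -0.13 and 0.07. By limma's unadjusted p under 0.05 there were 2 among the oxidative phosphorylation genes, 4 among the splicing factors and 0 in the other two lists, and the test of the study's methods called none after adjustment. Of 27 proteasome and ubiquitin genes, 12 metallothionein and zinc genes and 10 reference genes 1 each was called higher (PSMC6, MT1X and SDHC), and none of the 3 held against its signal quartile. GAPDH differed by -0.01 and HPRT1 by -0.10, both far from the threshold. Calcium and phosphoinositide genes had 3 higher and 1 lower of 23, membrane repair genes 4 higher of 19, and NF-kB genes 2 higher and 1 lower of 17. Beside the 7.39% higher and 1.63% lower of all genes, such counts in lists of this size are not read as a result about the lists. Of these calls 1 in each list, or 2 for NF-kB, held against the signal quartile. These were ORAI2, a calcium channel subunit, at -0.69, VPS4B, an ESCRT ATPase, at 0.85, and NFKBIZ at -1.50 with NFKBIE at 0.93. Single arrays ended each of these 4 calls, which were heat shock replicate 1 or 3 or nsEP replicate 1 or 2 for ORAI2 (adjusted p up to 0.18), nsEP replicate 2 for VPS4B (0.0523), heat shock replicate 1 for NFKBIZ (0.0536) and heat shock replicate 1 or nsEP replicate 2 for NFKBIE (up to 0.108). With poly-A scaling ORAI2 was at 0.09, and NFKBIZ (adjusted p = 0.47) and NFKBIE (0.0632) were not called. ORAI2 had 1 of its 6 probe sets called and the highest at 0.56.

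**Figure D5:**
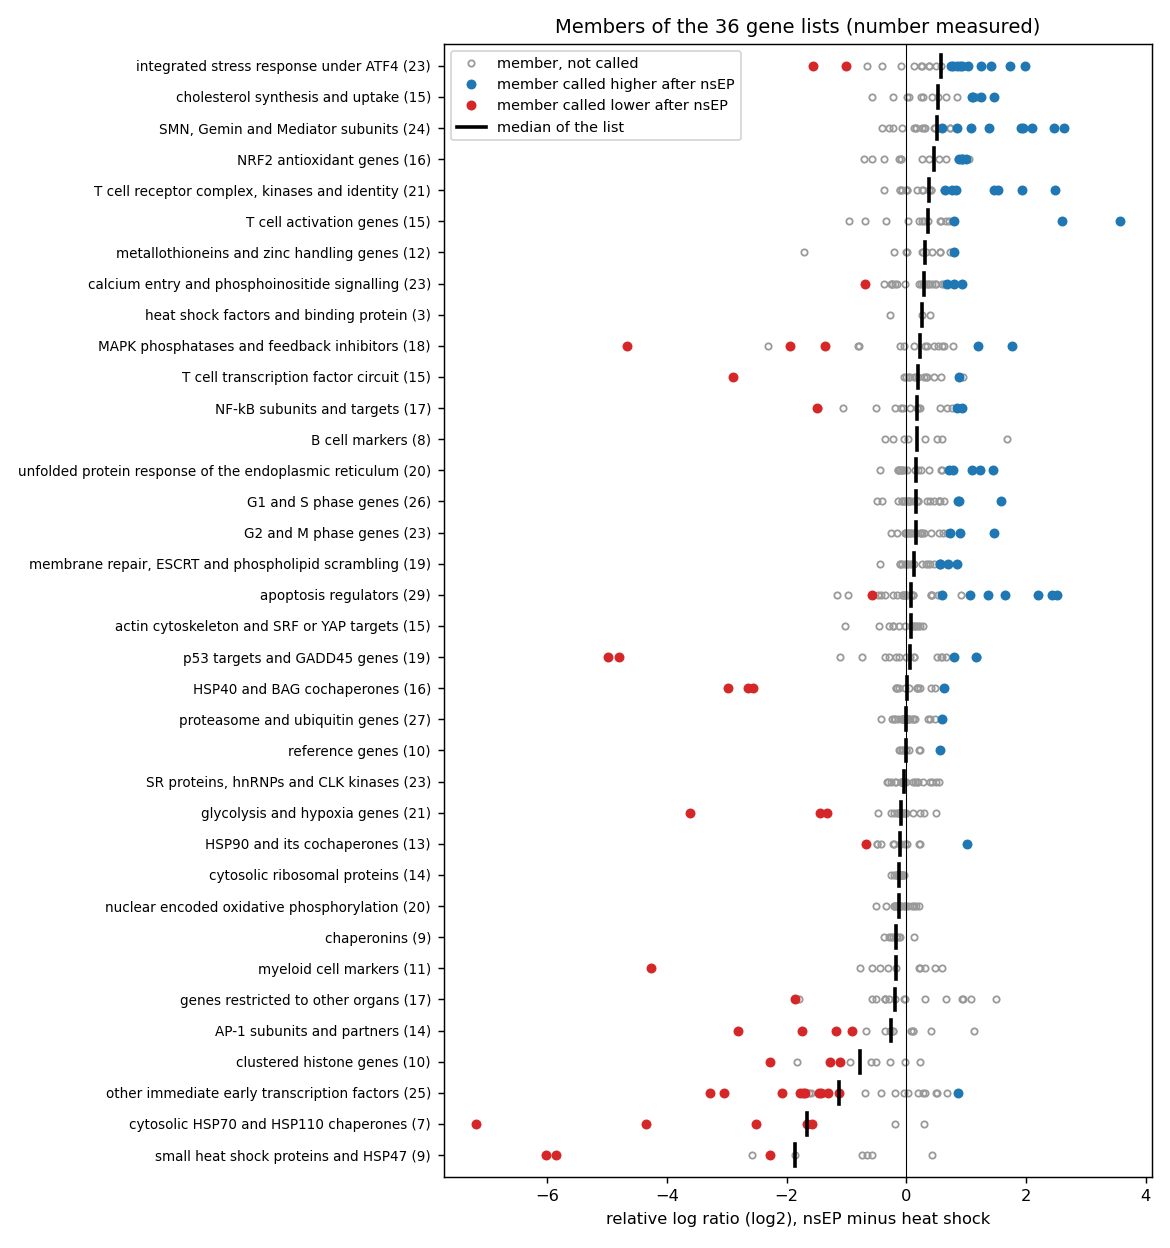
Relative log ratio (log2), nsEP minus heat shock, of every measured member of 36 gene lists, 1 point a gene, with called members filled and the median of each list as a black bar. The lists of small heat shock proteins, HSP70 genes and other immediate early genes have medians of -1.86, -1.65 and -1.13, and that of the integrated stress response has the median furthest to the right, at 0.58.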

How the data were processed

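Transcripts were measured on Affymetrix HG-U133 Plus 2.0 arrays. The authors deposited the log2 of the MAS5 signal of each probe set; turned back to signals, their mean with the lowest and highest 2% left out was 500.1 on every array, and no quantile normalization or removal of dim probe sets had been done. Detection calls were not used here. Names came from the platform annotation, updated by gene ID: of 54613 probe sets 41091 had 1 symbol, 1801 several and 11721 were not listed. All 9 arrays, sham included, entered 1 limma 3.58.1 fit (R 4.3.3) with a mean per group and a variance trend; tests were two-sided, of the log ratio minus its median, with Benjamini-Hochberg adjustment over all probe sets. An exact permutation test of 3 against 3 cannot go below p = 0.1, and precision is limited by the number of arrays. The methods' t-test and other scalings were alternatives.

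Named genes were the 15 with the largest relative log ratio in each direction among called genes with non-overlapping groups and a higher group at or above the median signal, up to 4 called members of each of 36 lists, or the 1 with the smallest p, and a fixed set of names. The genes and lists were chosen with earlier results of these data known. HSPA8 had no probe set naming it alone. Promoter sequences came from RefSeq tables, which held 15384 of the 19775 genes.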

Additional observations from a re-analysis of the deposited data

Results flagged for a closer look

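Affymetrix places control probe sets for ribosomal RNA on the array, and these did not enter the comparison of genes. Of these, 3 differed between nsEP and heat shock by the same limma test and lay above the sham arrays after at least 1 treatment, which is why they are given here. Not called were the 5' and middle probe sets of 18S RNA, at -0.28 (adjusted p = 0.82) and -1.01 (0.14). The middle probe set of 28S RNA, at -0.26 (0.38), was not called either, so probe sets of the same RNA differed in their calls. The 3' probe set of 18S RNA had a relative log ratio of -1.71 (adjusted p = 0.0131), with 10.94 ± 0.89 after nsEP, 12.83 ± 0.20 after heat shock and 11.28 ± 0.49 in sham (log2 signal, mean ± SD, n = 3). The 3' probe set of 28S RNA had -2.29 (adjusted p = 0.00428), with 6.18 ± 0.74 after nsEP, 8.65 ± 0.13 after heat shock and 6.69 ± 0.55 in sham. The 5' probe set of 28S RNA had -1.09 (adjusted p = 0.000924) and was above sham after both treatments, at 14.24 ± 0.11 after nsEP, 15.51 ± 0.10 after heat shock and 12.54 ± 0.08 in sham. No cause of these differences was tested.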

How the results depend on the processing

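The number of probe sets called higher after nsEP, 2578, was 1261 as deposited and against 0, 1078 relative to the brightest quartile, 1278 relative to the own signal quartile, 1240 after quantile normalization and 597 without the variance trend, and the methods' t-test gave 168 at its own thresholds, with an unadjusted p, and 38 after Benjamini-Hochberg adjustment. The number called lower, 1151, was 139 after scaling to the poly-A controls, 625 without the trend and 86 with the adjusted t-test. The share of calls that were higher, 69.1%, was 79.7% with arrays centred on their medians, 92.8% with poly-A scaling, 46.6% as deposited, 41.5% against the brightest quartile, 54.7% against the own quartile, 52.5% after quantile normalization, 48.9% without the trend, and 13.4% and 30.7% with the t-test before and after adjustment. Leaving out 1 array gave 887 (without nsEP replicate 2) to 3801 (without nsEP replicate 3) higher, 580 (without heat shock replicate 3) to 1340 (without nsEP replicate 3) lower and 52.4% to 73.9% higher. Without heat shock replicate 1 the counts were 1423 and 620, without replicate 2 of that group 1719 and 755, and without replicate 3 1553 and 580.

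Of the 48 named genes called lower after nsEP all 48 stayed called as deposited, relative to either quartile and after quantile normalization, and 24 did with poly-A scaling, where FKBP4 (0.095) and ORAI2 (0.088) reversed. Of the 66 called higher 44 stayed called against their own quartile, 27 without the variance trend and 36 without nsEP replicate 2. With a replicate block in the fit the counts were 2638 and 1069. The labels do not say what a shared number means. Deviations of same-numbered nsEP and heat shock arrays correlated at -0.02, 0.21 and -0.05 over the brighter probe sets. The 0.21 of replicate 2 was the highest of all pairs, but not every array correlated best with its own number. With 3 arrays in a group these values cannot decide whether the samples were paired. With the 6 nsEP and heat shock arrays alone in the fit the counts were 1759 higher and 896 lower, and 52 of the 66 and 45 of the 48 stayed called. The 14 and 3 that did not were ZNF350, BAG5, CDC37L1, PSMC6, EDEM1, CASP10, NOTCH3, CENPE, ORAI1, ATP2A2, CHMP2B, ANXA1, ANO6 and SDHC among the higher and MAFF, ORAI2 and PPP1R15A among the lower, with adjusted p between 0.0507 (EDEM1) and 0.0934 (ANO6). Causes of these shifts were not tested. Dim signals limit what can be seen, as arrays of a group had a median SD of 1.09 for probe sets of the lowest quartile of signal and 0.24 for those of the highest.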
